A study of Arabidopsis arenosa x Arabidopsis thaliana and Arabidopsis thaliana and Arabidopsis arenosa with 5 samples.

Results

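Glucosinolate breakdown was followed through 9 genes, which encode the leaf myrosinases TGG1 (AT5G26000) and TGG2 (AT5G25980), the epithiospecifier modifier ESM1 (AT3G14210), the epithiospecifier protein ESP (AT1G54040) and the nitrile specifier proteins. The last are NSP1 (AT3G16400), NSP2 (AT2G33070), NSP3 (AT3G16390), NSP4 (AT3G16410) and NSP5 (AT5G48180). The members were taken by their locus identifiers from tables of 32313 genes in all, a rule that uses no measured value. They and the gene lists below were, however, chosen with earlier results of these data known. All 9 were listed in the tables of both parents, in 15 transcripts. Of these, 5 (TGG1, ESM1, ESP, NSP1 and NSP5) were also listed in the tables of the allotetraploids, and TGG2, NSP2, NSP3 and NSP4 were not analysed there.

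The values are from mRNA sequencing of rosette leaves collected before bolting from tetraploid Arabidopsis, in a study of gene expression in allopolyploids and their parents. The parents were an autotetraploid A. thaliana of the accession Landsberg erecta, aged 3 to 4 weeks, and an autotetraploid A. arenosa named Care-1, aged 6 to 7 weeks. The allotetraploids, all aged 6 to 7 weeks, were a resynthesized F1, an F8 allotetraploid and the natural allotetraploid species A. suecica. Both parents and the F1 had 3 replicate columns each, and F8 and A. suecica had 1 library each, which gives 11 libraries. All plants were tetraploid and grew in 16 h of light at 22 °C and 8 h of dark at 20 °C. Age and genotype cannot be told apart in any comparison of another group with the A. thaliana plants.

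Glucosinolates are sulphur-rich glucosides of the cabbage order that are stored apart from myrosinases, the thioglucosidases that cleave them when tissue is crushed. The unstable product rearranges to a toxic isothiocyanate by itself, while specifier proteins divert it to nitriles or, for glucosinolates with a terminal double bond, to epithionitriles. In A. thaliana leaves the myrosinases TGG1 and TGG2 lie in myrosin cells along the veins and in guard cells, and natural accessions differ in ESP and ESM1, which shift the balance between nitriles and isothiocyanates.

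The myrosinase genes are neighbours, and the 250 bases before their annotated starts show which longer identical runs these reference promoters share. In TAIR10.1, TGG1 lies on the minus strand at chr5:9079452-9082384 and TGG2 on the plus strand at chr5:9072708-9075777, with their 3′ ends 3674 bases apart and 2 genes annotated between them. The windows are chr5:9082385-9082634 (minus strand) for TGG1 and chr5:9072458-9072707 (plus strand) for TGG2, written 5′ to 3′ from the RefSeq genome of A. thaliana Columbia. Capitals mark runs of at least 12 bases that both windows hold.
TGG1: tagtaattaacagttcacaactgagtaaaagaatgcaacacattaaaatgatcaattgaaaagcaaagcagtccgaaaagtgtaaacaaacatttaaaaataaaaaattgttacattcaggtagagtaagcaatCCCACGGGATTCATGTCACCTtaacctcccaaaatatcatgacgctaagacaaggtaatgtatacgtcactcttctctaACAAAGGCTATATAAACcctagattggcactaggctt
TGG2: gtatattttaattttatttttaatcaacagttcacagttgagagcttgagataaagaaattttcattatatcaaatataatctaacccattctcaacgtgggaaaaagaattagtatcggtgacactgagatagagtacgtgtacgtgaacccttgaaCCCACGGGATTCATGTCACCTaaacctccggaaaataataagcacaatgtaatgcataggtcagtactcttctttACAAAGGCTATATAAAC
The shared runs were 2 in number and covered 38 of the 250 bases (15.2%), with a longest run of 21 bases. Each window held TATAAA once on the strand shown, starting 27 bases before the end of the window in TGG1 and 7 bases before it in TGG2. That motif was present on either strand in 47.3% of 27443 promoter windows of the same length. Neither the G-box CACGTG, present in 6.49% of these windows on either strand, nor the evening element AAAATATCT, present in 2.36%, was found in either window. Over their coding sequences the genes were 82.6% identical, with no identical run above 55 bases, and their transcripts shared no window of 60 bases.

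The nitrile specifier genes are closer relatives, and their likeness limits how reads of this length can be assigned. NSP3 (chr3:5562400-5564574), NSP1 (chr3:5566083-5568545) and NSP4 (chr3:5571903-5574758) stand in a row on the plus strand, 1508 and 3357 bases apart. NSP2 (chr2:14028282-14031164) and NSP5 (chr5:19540937-19542760) lie elsewhere on the minus strand. The coding sequences of NSP1 and NSP4 were 94.8% identical and shared an identical run of 366 bases. The first 60 bases of that run begin at coding position 760 in NSP1 and 1207 in NSP4, and the lines below give them with the same stretch of NSP3 and NSP2. Capitals mark bases that differ from NSP1.
NSP1: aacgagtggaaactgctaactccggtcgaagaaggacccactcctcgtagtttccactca
NSP4: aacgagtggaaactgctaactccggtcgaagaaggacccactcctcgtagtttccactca
NSP3: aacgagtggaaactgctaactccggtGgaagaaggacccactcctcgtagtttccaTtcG
NSP2: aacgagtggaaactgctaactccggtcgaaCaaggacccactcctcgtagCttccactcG
NSP3 and NSP2 each differed from NSP1 at 3 of these bases. Of the 60-base windows of the NSP1 transcript, 30.6% also occurred in another gene, chiefly NSP4, and 21.9% of those of NSP4 occurred in NSP1. The reads were 60 to 83 bp long, so the authors' counting may have split reads between NSP1 and NSP4, and their values are uncertain to that extent. The share was 0.561% for NSP3 and 0 for the other members. ESP was 63.5% to 67.1% identical to the nitrile specifier genes.

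The leaf origin of the libraries was checked with marker genes. LHCB1.3, a light-harvesting gene of mesophyll, had 4109, 12250 and 23805 RPKM in the A. thaliana replicates and 12941, 18986 and 13711 RPKM in those of A. arenosa. Root markers COBL9 and EXPA7 were at 0 in all parental libraries, and of 6 flower markers SEP2 alone was above 5 RPKM in a parent (13.7 ± 4.85 in A. arenosa against 0.106 ± 0.0515 in A. thaliana, SD, n = 3). The root list also held LRX1, at 1.25 RPKM or less, and PYK10, which reached 15.5 RPKM in A. thaliana replicate 3. Ribosomal RNA transcripts took 59.6% of the summed values in A. arenosa replicate 1 and 0.232% to 2.56% in the other parental libraries. RPKM relate reads to transcript length and library size, and they leave the depth of each library unknown. No label says that replicate columns were separate plants, so p-values measure the spread between these columns, which may be technical.

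In the parents, the members moved in both directions: TGG2, ESM1 and NSP3 were higher in A. arenosa, ESP was lower, and TGG1, NSP1, NSP4 and NSP5 passed no test. A gene was compared where the larger parental mean reached 5 RPKM, and called at a limma adjusted p below 0.05 and a difference of at least 2-fold on the log2(RPKM + 1) scale, which understates differences of low genes. Of the 8 members compared, 4 were called, 3 higher and 1 lower in A. arenosa. Over all 12740 genes compared, 14.9% were called, 10.7% higher and 4.21% lower. The median log2 difference was 1.24 over the 8 members and 0.31 over all genes compared. NSP2 fell below the level filter and was not tested.

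**Figure D1:**
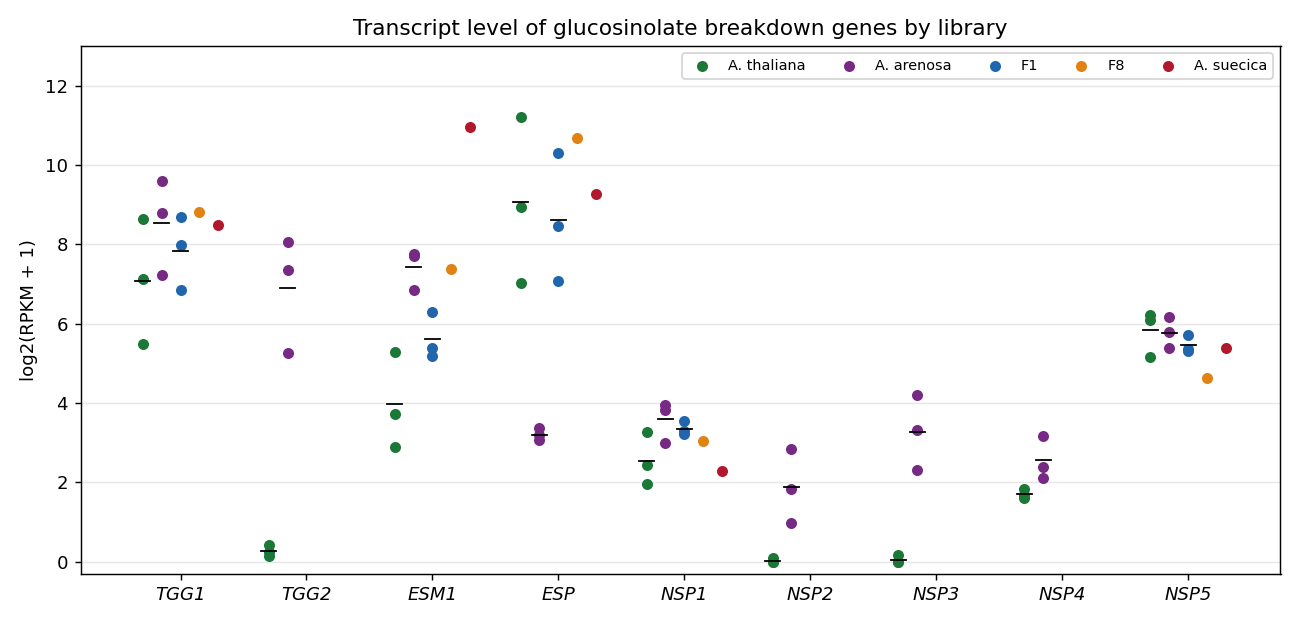
Level of each gene in each library as log2(RPKM + 1), with both alleles summed in the allotetraploids; points are libraries and black bars are the means of 3 replicates. TGG2 and ESP show the widest gaps between the parents, and TGG2, NSP2, NSP3 and NSP4 have points for the parents only.

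TGG1, the myrosinase that makes up much of the protein of A. thaliana guard cells, was at 44.1, 138 and 396 RPKM in replicates 1, 2 and 3 of A. thaliana. In the A. arenosa replicates it had 148, 438 and 769 RPKM. The groups overlapped, and the highest library was 8.97 times the lowest in A. thaliana and 5.20 times in A. arenosa. The log2 difference was 1.45 (SE 0.92, limma adjusted p = 0.31), with a 95% interval from -0.73 to 3.62. In bulk leaves, more cells of a type and more RNA per cell cannot be told apart. All 3 mesophyll markers had the same order of replicates as TGG1 in A. thaliana, among them RBCS1A, a Rubisco small subunit gene, with 1170, 3388 and 12983 RPKM, and RCA, the Rubisco activase gene, with 274, 943 and 3218 RPKM. In A. arenosa RBCS1A had that order too (5247, 6849 and 9663 RPKM), while RCA (1362, 1195 and 1423 RPKM) and LHCB1.3 did not. The part of these levels in the TGG1 values was not tested.

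TGG2, the second leaf myrosinase, was near 0 in A. thaliana, with 0.178, 0.331 and 0.107 RPKM. The A. arenosa replicates had 37.3, 162 and 264 RPKM. Every A. arenosa library was thus far above every A. thaliana library, and the log2 difference was 6.62 (SE 0.66, limma adjusted p = 0.00103). Within A. arenosa, TGG2 had the same order of libraries as TGG1, lowest in replicate 1 and highest in replicate 3. Replicate 1 is also the library with 59.6% of its summed values in ribosomal RNA transcripts. The other values were not rescaled when these were left out, and the part of this in both genes was not tested. In A. thaliana the RPKM of TGG1 exceeded that of TGG2 in all 3 replicates, and this held in A. arenosa too.

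ESM1, a GDSL-lipase-like protein that favours isothiocyanates over nitriles in A. thaliana, lies at chr3:4729399-4731847 on the plus strand. It had 6.39, 12.2 and 38.1 RPKM in the A. thaliana replicates and 114, 208 and 214 RPKM in those of A. arenosa. The groups did not overlap, and the log2 difference was 3.47 (SE 0.62, limma adjusted p = 0.0109). The call was lost without A. arenosa replicate 2 (log2 difference 3.33, limma adjusted p = 0.0556) or replicate 3 (3.31, adjusted p = 0.0542).

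ESP, the protein that directs breakdown to epithionitriles and nitriles, went the other way. It lies at chr1:20170715-20173949 on the minus strand and has 2 annotated transcripts. The spliced transcript 2, which represents the gene below, had 128, 488 and 2382 RPKM in the A. thaliana replicates and 7.33, 8.13 and 9.29 RPKM in those of A. arenosa. The lowest A. thaliana library was above the highest A. arenosa library, although the A. thaliana libraries spanned 18.5-fold. The log2 difference was -5.85 (SE 0.96, limma adjusted p = 0.00771).

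Transcript 1 of ESP is a single exon that starts inside the intron of transcript 2 and lacks its first exon. The intron has 1865 bases, of which transcript 1 holds 377. The coding sequence is 786 bases in transcript 1 and 1026 bases in transcript 2. The junction that only transcript 2 holds is shown with 30 coding bases on each side, from chr1:20173853-20173882 and chr1:20171958-20171987, minus strand, with the second exon in capitals.
ESP transcript 2: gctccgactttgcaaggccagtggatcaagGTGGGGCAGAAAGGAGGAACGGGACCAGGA
Transcript 1 had 204, 624 and 2.76 RPKM in the A. thaliana replicates, so it was near transcript 2 in replicates 1 and 2 and far below it in replicate 3. The F1 libraries, with both alleles summed, had 230, 516 and 4.45 RPKM of transcript 1 against 134, 350 and 1254 RPKM of transcript 2. F8 had 4.26 against 1644 RPKM and A. suecica 599 against 618 RPKM. Transcript 2 thus exceeded transcript 1 by 863 times in A. thaliana replicate 3, 282 times in F1 replicate 3 and 386 times in F8, and the ratio lay between 0.583 and 1.16 in the other 8 libraries, A. arenosa included.

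Such a switch was uncommon among the genes counted, which had 2 listed transcripts. Only genes with both transcripts detected and a level above a minimum were counted. In the parents this left out genes with a transcript undetected in a replicate, and so any complete switch. In the F1 every listed transcript was detected, so the counts of the parents and the F1 are unlike. Of the genes whose transcripts were within 2-fold of each other in replicates 1 and 2, those that stood at least 100-fold apart in replicate 3 numbered 5 of 492 in A. thaliana, 1 of 567 in A. arenosa and 18 of 546 in the F1. The share of genes with transcripts at least 10-fold apart ranged from 5.88% (F8) to 15.8% (F1 replicate 3) over the libraries. The sources used here do not state how reads were divided between transcripts, and the part of that step in these values was not tested. Of low values, 23.9% came out near whole reads in A. thaliana replicate 3, against 4.85% and 6.52% in replicates 1 and 2. In A. arenosa replicate 3, where ESP did not switch, it was 27.4%. The share that would come out so by chance was not taken. With both transcripts summed, ESP had 332, 1111 and 2385 RPKM in A. thaliana and 13.7, 16.0 and 18.3 RPKM in A. arenosa, and the log2 difference was -5.83 (limma adjusted p = 0.00190). With transcript 1 alone, the difference was -3.18 and was not called (limma adjusted p = 0.25).

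**Figure D2:**
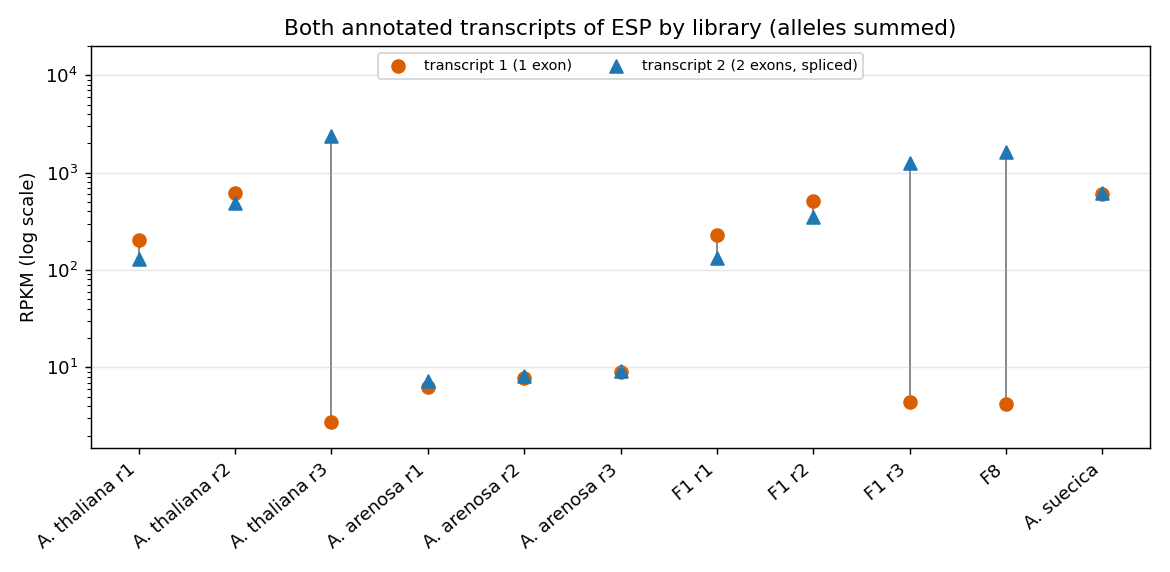
RPKM of both annotated ESP transcripts in each of the 11 libraries on a log axis, with alleles summed in the allotetraploids; lines join the transcripts of 1 library. The transcripts lie close together in 8 libraries and far apart in A. thaliana replicate 3, F1 replicate 3 and F8.

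Among the nitrile specifier genes, which direct breakdown to simple nitriles, NSP3 alone was called between the parents. NSP3 was listed at 0, 0.124 and 0 RPKM in the A. thaliana replicates and had 3.96, 8.97 and 17.4 RPKM in those of A. arenosa. The groups did not overlap, and the log2 difference was 3.22 (SE 0.48, limma adjusted p = 0.00560). NSP2, known for its expression in seeds, was not tested and had 0, 0.0643 and 0 RPKM in A. thaliana against 2.57, 6.20 and 0.957 RPKM in A. arenosa. Its lowest A. arenosa library was replicate 3, where NSP3 was highest.

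NSP1, the nitrile specifier best known from rosette leaves, had 2.87, 4.41 and 8.57 RPKM in A. thaliana and 6.93, 14.5 and 13.1 RPKM in A. arenosa. The groups overlapped, and the log2 difference of 1.04 (SE 0.41, limma adjusted p = 0.13) was called in 1 of 14 alternatives, without A. thaliana replicate 3 (1.39, adjusted p = 0.0304). NSP4 had 2.03, 2.56 and 2.19 RPKM against 3.31, 4.23 and 8.00 RPKM, groups that did not overlap, and its log2 difference was 0.85 (SE 0.32, limma adjusted p = 0.12). NSP5 was the most abundant member of the nitrile specifier family in both parents, with 34.9, 74.0 and 67.6 RPKM against 70.3, 40.9 and 53.9 RPKM. Its groups overlapped, and the log2 difference was -0.06 (SE 0.37, limma adjusted p = 0.93), with a 95% interval from -0.95 to 0.83.

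In the F1, where both alleles share the same nuclei, the allele ratio asks which parental differences travel with the allele. In all, 3 of 5 members were called: the A. arenosa allele was higher for ESM1 and TGG1 and lower for ESP, while NSP1 and NSP5 were not called. Over all 10221 genes with an allele sum of at least 5 RPKM, 12.9% were called, 8.47% higher and 4.42% lower from A. arenosa. The median log2 ratio was 0.03 over the 5 members and 0.05 over all genes. No allele in the F1 table was listed at 0, and the lowest allele value was 0.0113 RPKM. The sources used here do not state how reads were divided between alleles. The TGG1 allele sum had fewer decimals in F1 replicate 3 (408.368 RPKM), F8 (445.395) and A. suecica (357.812) than in F1 replicates 1 and 2 (114.701882 and 251.156061). ESP in replicate 3 was an exception (1253.500134 RPKM). Whether replicate 3 was divided in the way of replicates 1 and 2 is unknown, and its part in the ratios was not tested.

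The A. thaliana and A. arenosa alleles of TGG1 had 36.0 and 78.7 RPKM in F1 replicate 1, 75.6 and 176 RPKM in replicate 2, and 130 and 278 RPKM in replicate 3. The levels varied 3.56-fold between the replicates, but the A. arenosa share stayed at 68.9% ± 0.914 (SD, n = 3). The log2 ratio was 1.13 (SE 0.13, limma adjusted p = 0.00403), higher from A. arenosa in 3 of 3 replicates.

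The alleles of ESM1 had 5.92 and 29.4 RPKM, 7.78 and 33.3 RPKM, and 6.36 and 71.0 RPKM in the F1 replicates, in the same order of alleles. The A. arenosa allele was higher in all 3, with a share of 85.4% ± 5.66 (SD, n = 3) and a ratio of 2.46 on the log2 scale (SE 0.28, limma adjusted p = 0.00371). For ESP the A. thaliana allele had 133, 350 and 1253 RPKM, while the A. arenosa allele had 0.531, 0.281 and 0.117 RPKM. Nearly all ESP mRNA in the F1 was thus assigned to the A. thaliana allele, and the log2 ratio was -8.23 (SE 0.62, limma adjusted p = 0.00217).

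The NSP1 alleles had 4.31 and 4.46 RPKM, 5.58 and 5.09 RPKM, and 3.84 and 4.44 RPKM in the F1 replicates, with a log2 ratio of 0.03 (SE 0.16, 95% interval -0.35 to 0.41, limma adjusted p = 0.89). Those of NSP5 had 22.0 and 16.8 RPKM, 29.8 and 10.3 RPKM, and 29.1 and 22.4 RPKM. The A. thaliana allele of NSP5 was higher in 3 of 3 replicates, but the log2 ratio of -0.73 (SE 0.25, limma adjusted p = 0.075) was not called.

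**Figure D3:**
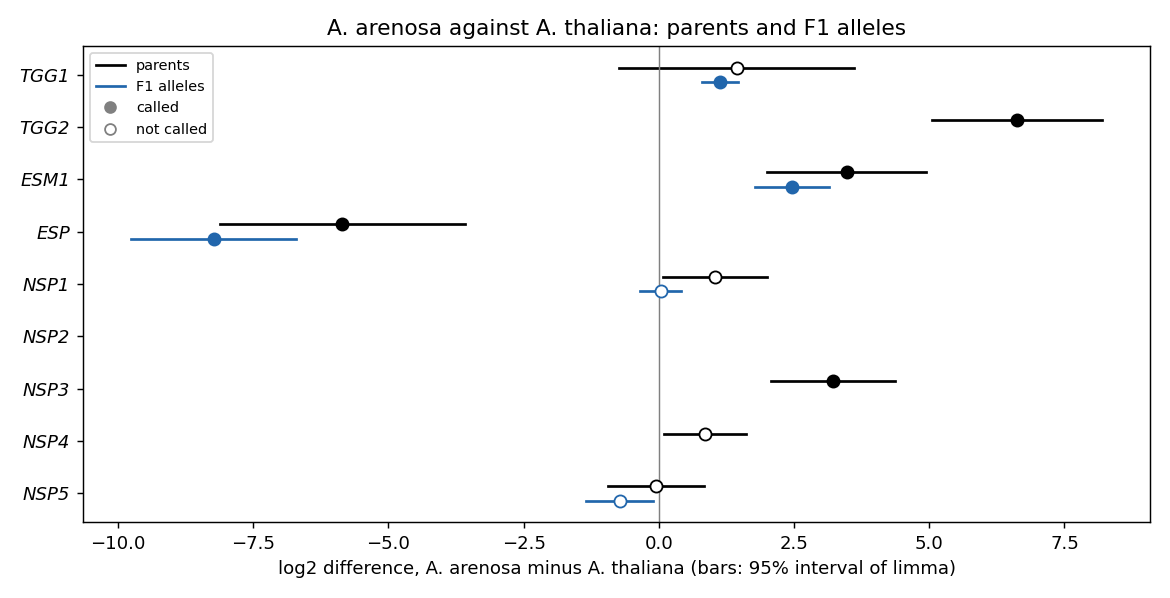
Log2 difference of A. arenosa minus A. thaliana on the log2(RPKM + 1) scale, between the parents (black) and between the alleles in the F1 (blue), with the 95% interval from limma; filled points were called. ESP lies far to the left in both, and ESM1 to the right in both, while NSP2 was not tested and TGG2, NSP3 and NSP4 have a parental value only.

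The trans term subtracts the allele ratio in the F1 from the parental difference and keeps the sign. It is 0 where the alleles differ in a shared nucleus as the parents do, and a positive value can come from a larger or a smaller difference between the parents. No member was called by limma, and 1 of 5, NSP1, had an unadjusted p below 0.05 (log2 1.00, SE 0.43, unadjusted p = 0.0405, adjusted p = 0.30). Over all 9855 genes, 0.162% were called and 1520 had an unadjusted p below 0.05. The term was 2.38 for ESP (95% interval -0.42 to 5.17), 1.01 for ESM1 (-0.57 to 2.58), 0.67 for NSP5 (-0.41 to 1.75) and 0.31 for TGG1 (-1.75 to 2.37). These intervals include 0 but also differences above 2-fold. By these estimates the parents differed less than the F1 alleles for ESP (log2 -5.85 against -8.23) and NSP5 (-0.06 against -0.73).

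With both alleles summed, the F1 was then compared with each parent. ESP was higher in the F1 than in A. arenosa, and no other member was called against either parent. Summed levels in the F1 replicates were 115, 251 and 408 RPKM for TGG1, 35.3, 41.1 and 77.4 RPKM for ESM1, 8.77, 10.7 and 8.27 RPKM for NSP1, and 38.8, 40.2 and 51.6 RPKM for NSP5. Against A. arenosa, ESP had a log2 difference of 5.40 (SE 1.02, limma adjusted p = 0.0392), called where 1.17% of 10415 genes were. That call held without A. thaliana replicate 1 or 3 and was lost on leaving out any other single library (adjusted p from 0.0553 to 0.13), although every F1 library was above every A. arenosa library.

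ESM1 in the F1 lay between the parents, below each A. arenosa library and overlapping A. thaliana. Its log2 difference was 1.66 against A. thaliana (SE 0.57, limma adjusted p = 0.10) and -1.81 against A. arenosa (SE 0.57, limma adjusted p = 0.14). Both were called without A. thaliana replicate 3, at 2.32 (limma adjusted p = 0.0134) and -1.81 (adjusted p = 0.0368). Against A. thaliana 0 of 5 members were called by limma, where 4.5% of all genes were. ESM1 and NSP1 had an unadjusted p below 0.05, as had 2884 of all 10415 genes. Of 17 alternative settings, 3 called ESM1, a replicate block among them, and 1 called NSP1. These comparisons share columns with the parental difference.

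In the allotetraploids with 1 library each, values are sizes without a test. ESP was assigned wholly to the A. thaliana allele in both: that allele had 1644 RPKM in F8 and 618 RPKM in A. suecica, and the A. arenosa allele was listed at 0 in each. ESM1 was the reverse in A. suecica, with 1978 RPKM from the A. arenosa allele and the A. thaliana allele listed at 0, whereas F8 had 16.8 RPKM from A. thaliana and 148 RPKM from A. arenosa. Summed ESM1 was higher in A. suecica than in F8 by 3.58 on the log2(RPKM + 1) scale, and 13.3% of 10313 genes were at least 2-fold higher in that comparison. On the same scale it was 11.4-fold above the mean of A. arenosa, where 15.1% of genes were at least 2-fold higher, and no other library of the series reached it.

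The TGG1 alleles were nearly equal in F8, with 226 RPKM from A. thaliana and 219 RPKM from A. arenosa. In A. suecica they had 102 and 256 RPKM, an A. arenosa share of 71.6% against 49.3% in F8. Summed TGG1 was 445 RPKM in F8 and 358 RPKM in A. suecica, both within the range of the A. arenosa libraries. NSP5 was skewed to A. thaliana in both, with 19.6 and 4.29 RPKM in F8 and 26.9 and 13.8 RPKM in A. suecica, and NSP1 had 2.17 and 5.06 RPKM in F8 and 1.33 and 2.53 RPKM in A. suecica. Alleles stood at least 2-fold apart for 3 of 5 members in F8, where 19.2% of all genes did, and for 3 of 4 in A. suecica, where 24.2% did. NSP1 in A. suecica was below the filter with a summed level of 3.86 RPKM.

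**Figure D4:**
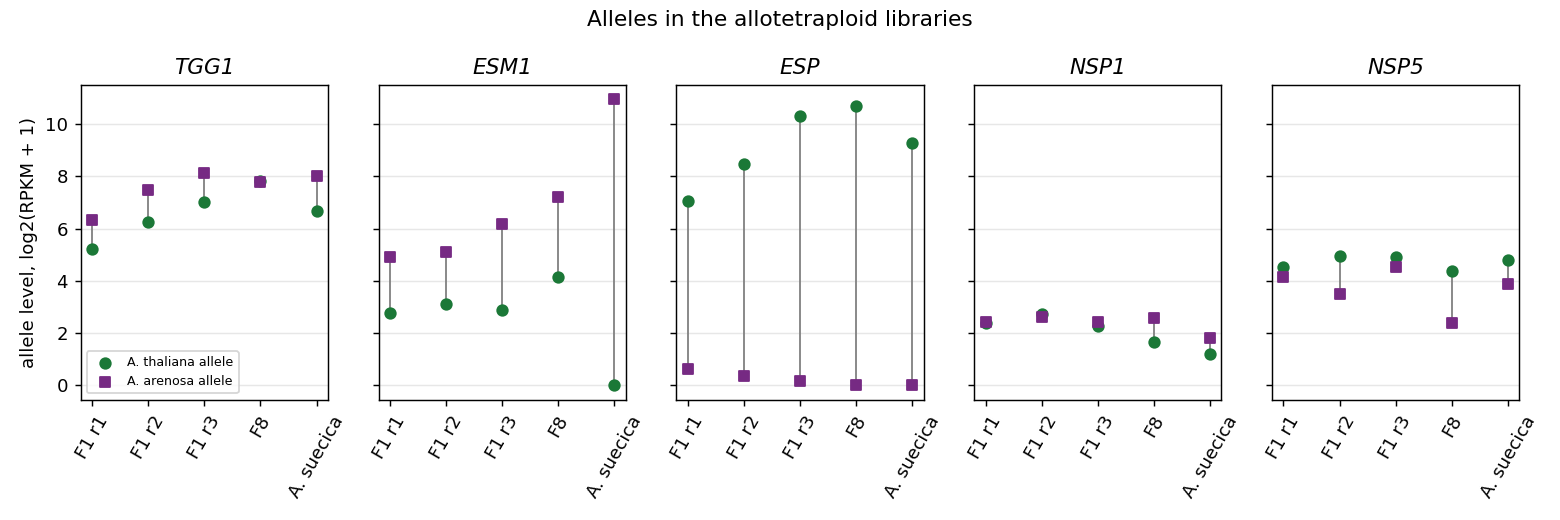
Level of the A. thaliana allele (green circles) and the A. arenosa allele (purple squares) as log2(RPKM + 1) in the 3 F1 replicates (r1 to r3), F8 and A. suecica; lines join the alleles of 1 library. ESP has its A. arenosa allele near 0 in all 5 libraries, and ESM1 in A. suecica combines 1978 RPKM from the A. arenosa allele with 0 from the A. thaliana allele.

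By summed level the libraries fell in a different order for each gene. ESM1 ran from A. thaliana (18.9 ± 16.9 RPKM, SD, n = 3) through the F1 (51.3 ± 22.8), F8 (164) and A. arenosa (179 ± 56.3) to A. suecica (1978). ESP ran from A. arenosa (8.25 ± 0.987) through the F1 (579 ± 594), A. suecica (618) and A. thaliana (999 ± 1211) to F8 (1644). F8 lay within the A. arenosa replicates for ESM1. For ESP every allotetraploid library lay within the range of the A. thaliana replicates. For NSP5 the parents and the F1 overlapped, and F8 (23.9 RPKM) was below all other libraries.

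Across the 11 libraries, the genes most like a member in log2(summed RPKM + 1) were taken from 9922 genes. For TGG1 they were ATP3 (Pearson r = 0.98) and ALB1 (0.97), for ESP AT4G34215 and PME1 (both 0.94), and for ESM1 AT1G01800 and AARE (both 0.98). For NSP1 they were LBD38 (0.96) and AIP3 (0.95), and for NSP5 AT5G65380 (0.86) and AT2G29170 (0.83). Between members the coefficient was 0.68 for TGG1 and ESM1, 0.66 for TGG1 and NSP1, 0.05 for TGG1 and ESP, and -0.13 for ESP and ESM1. The 11 points share groups and library effects, so the coefficients are descriptions of these libraries.

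Other genes around the pathway were taken from lists. Of 10 further breakdown enzymes and nitrilases, 6 were compared between the parents, and 3 were higher in A. arenosa and none lower, where 10.7% of all genes were higher and 4.21% lower. The median log2 difference was 0.89 over the 6 genes, against 0.31 over all genes. PEN2, an atypical myrosinase that acts on indole glucosinolates in defence, had 72.2 ± 6.69 RPKM in A. thaliana and 181 ± 55.4 RPKM in A. arenosa (SD, n = 3; log2 difference 1.27, SE 0.32, limma adjusted p = 0.0373). The nitrilase genes NIT2 and NIT3, whose products convert nitriles to acids, were higher by log2 differences of 3.86 (limma adjusted p = 0.0163) and 3.40 (adjusted p = 2.57e-04). TGG3 to TGG6 were below the filter in both parents, and none of the 3 genes with F1 alleles was called. Of these 3, PEN2 and NIT1 had a limma adjusted p below 0.05 at less than 2-fold (log2 ratios 0.96 and 0.72, toward A. arenosa). In that test 4536 of all 10221 genes had an unadjusted p below 0.05.

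Of 6 genes for myrosinase partners and for neighbours of ESP, 4 were compared, and all 4 were higher in A. arenosa, as were 10.7% of all genes. Their median log2 difference was 2.72. MBP2, a myrosinase-binding protein gene, had 0.554 ± 0.352 RPKM in A. thaliana and 126 ± 87.1 RPKM in A. arenosa (SD, n = 3), a log2 difference of 6.12 (SE 0.53, limma adjusted p = 6.28e-04). MBP1 differed by 1.93 (adjusted p = 0.0376), MVP1, which carries the locus number next to ESP, by 1.82 (adjusted p = 0.00608) and AT1G54020 by 3.51 (adjusted p = 0.00410) in limma. MVP1 was thus higher in A. arenosa, where ESP was lower. Neither MVP1 nor MBP1 was called for F1 alleles by limma, and neither had an unadjusted p below 0.05 there. MVP1 was higher in the F1 than in A. thaliana (log2 1.04, SE 0.25, limma adjusted p = 0.0460).

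Myrosin cells and guard cells share the regulator FAMA, so a list of 4 regulators and 5 guard cell markers was set beside the myrosinases. None of the 4 regulators (FAMA, ICE1, SCRM2 and SYP22) was called between the parents by limma, where 14.9% of all genes were. An unadjusted p below 0.05 was found for 1 of them, ICE1, and for 4185 of all 12740 genes. FAMA had 8.87, 6.94 and 9.23 RPKM in A. thaliana and 7.41, 9.34 and 10.7 RPKM in A. arenosa. Of the guard cell markers 2 were above the filter and neither was called by limma between the parents, with log2 differences of 1.14 for GC1 (unadjusted p = 0.0208, adjusted p = 0.0866) and 0.15 for MYB60. The markers below the filter had lower means in A. arenosa. These were 4.92 RPKM in A. thaliana against 1.82 RPKM for KAT1, 2.76 against 1.93 for SLAC1 and 2.76 against 2.70 for HT1. In the F1 the A. arenosa alleles of GC1 (share 80.4% ± 6.36, SD, n = 3, limma adjusted p = 0.00390) and MYB60 (69.6% ± 10.9, limma adjusted p = 0.0384) were called higher. Over all genes in that test, 12.9% were called and 8.47% were higher from A. arenosa. None of the 3 regulators with F1 alleles was called, and their log2 ratios were below 0: -0.63 for FAMA (limma unadjusted p = 0.0283, adjusted p = 0.0757), -0.73 for ICE1 (adjusted p = 0.0370, less than 2-fold) and -0.11 for SYP22. Of the 3 mesophyll markers LHCB1.3 was called, at 1.51 (limma adjusted p = 0.00304), and RBCS1A (0.90, adjusted p = 0.00778) and RCA (0.37, adjusted p = 0.0637) were not. The part of these cell types in the TGG1 ratio was not tested.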

How the data were processed

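Messenger RNA of rosette leaves was measured in 11 libraries of 5 groups. Per the file headers, the authors deposited RPKM per transcript for the parents and RPKM per allele for the allotetraploids. The genome named in the submitters' processing notes is TAIR 9, while the sources used here do not state the aligner, the counting or the division of reads between alleles. Depth is unknown. Of low values, 4.85% to 7.91% in parental replicates 1 and 2 and 23.9% to 27.4% in replicates 3 came out near whole reads (tolerance 0.02). The lengths used were those of TAIR10.1, and the share that would come out so by chance was not taken. The authors' filters show in the tables, which hold 38431 transcripts for the parents and 14713 (F1), 14334 (F8) and 14233 (A. suecica) for the allotetraploids, of which 13848 stand in all tables; the lowest totals in F8 and A. suecica are 2.00 RPKM.

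Each gene was represented by 1 transcript, listed in all tables where any was and with the highest mean among those. The 6 transcripts of ribosomal RNA genes or genes within 1000 bp of them were left out. Values were analysed as log2(RPKM + 1), with a filter of 5 RPKM on the larger group mean or the allele sum, by limma 3.58.1 in R 4.3.3 with a variance trend. P-values were adjusted by Benjamini-Hochberg over all genes compared, and a call needed 0.05 and 2-fold. The F1 allele ratio was taken within replicates, and the trans term came from 1 model with pooled variance. A leave-out that leaves groups unequal assumes the same spread in each group. The labels do not say that a replicate number in the column headers marks a shared batch or plant. Over 10720 genes, deviations from the group means of same-numbered columns correlated at 0.28, 0.30 and 0.28 between A. arenosa and the F1. Each column correlated best with its own number there, which does not establish a pairing. No such match held between A. thaliana and A. arenosa (0.02, -0.11 and 0.14) or the F1 (0.52, -0.25 and 0.23). The replicate block was kept as an alternative. The fits were tested on simulated data with known differences.

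Gene positions, names and sequences are from RefSeq TAIR10.1, in which 31786 gene identifiers were found and 527 were not. They describe A. thaliana Columbia, not Landsberg erecta or A. arenosa. Python 3.11.15 with numpy 2.4.6, pandas 2.3.3, Biopython 1.88 and matplotlib 3.10.9 was used. The members and gene lists were chosen with earlier results of these data known. Named genes are all 9 members, any gene of the lists after the count of its list, and for each member the 2 genes with the highest correlation over all libraries (exceptions: none). Alternatives were another pseudocount, no filter, another scaling, summed transcripts, no variance trend, each column left out, a replicate block and, chosen after seeing the data, the lowest-numbered transcript and all replicate 3 columns left out.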

Additional observations from a re-analysis of the deposited data

Results flagged for a closer look

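The TGG1 allele ratio differed between the allotetraploids. The A. arenosa allele was higher in 3 of 3 F1 replicates, but in F8 the log2 ratio was -0.042 (226 RPKM against 219 RPKM), and in A. suecica it was 1.33. The mesophyll marker RBCS1A had a like pattern, with log2 ratios of 0.90 in the F1, -0.14 in F8 and 1.80 in A. suecica. The other mesophyll markers also had lower ratios in F8 than in the F1, but no higher ratio in A. suecica. LHCB1.3 had 1.51 in the F1, -0.059 in F8 and -0.29 in A. suecica. RCA had 0.37 in the F1, -0.30 in F8 and -0.43 in A. suecica. F8 and A. suecica have 1 library each, and the differences between F8 and the F1 and between A. suecica and F8 were not tested.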

How the results depend on the processing

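Of 415 values of 28 tested member results under alternative settings, 397 kept their direction and their side of the threshold, 12 lost a call, 6 gained a call and 0 reversed. The F1 allele calls of TGG1, ESM1 and ESP held in all 10 alternatives, and those of TGG2 and NSP3 between the parents in all 14. The number of members called moved for the F1 against its parents. Against A. thaliana (0 called) it was 0 to 2 on leaving out single columns, 1 with a replicate block (ESM1, limma adjusted p = 0.0272) and 1 without the replicate 3 columns. Against A. arenosa (1 called) it was 0 to 2 on leaving out single columns, 0 with the lowest-numbered transcript (ESP, log2 3.32, limma adjusted p = 0.40) and 0 without the replicate 3 columns. The replicate block changed no other member's call, and with it 1298 genes were higher and 503 lower between the parents. Between A. arenosa and the F1, where every column correlated best with its own number, ESP stayed called with the block (limma adjusted p = 0.0226), while ESM1 did not pass (adjusted p = 0.0537). The ESP difference between the parents ranged from -6.87 to -3.18 over its alternatives (limma adjusted p from 0.00190 to 0.25), and median-ratio scaling moved it from -5.85 to -6.12.

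Over all genes, the parental counts (1359 higher, 536 lower) became 936 and 718 with median-ratio scaling, 2043 and 812 with no filter, 2243 and 808 without A. thaliana replicate 3, 775 and 297 without its replicate 2, and 721 and 324 without A. arenosa replicate 2. The trans term called 5 higher and 11 lower, and 326 and 79 without A. thaliana replicate 3, still with 0 members. Members with alleles at least 2-fold apart numbered 2 to 4 in F8 and 3 to 4 in A. suecica over the settings tried. The causes were not tested. Depth is unknown, so values below about 1 RPKM may rest on few reads.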

Other observations

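Glucosinolate synthesis, transport and regulation was measured in the same leaves. Of 26 genes on that list, 21 were compared between the parents, and 2 were higher and 3 lower in A. arenosa, where 10.7% of all genes were higher and 4.21% lower. The median log2 difference was -0.26 over the 21 genes and 0.31 over all genes. AOP3, which modifies the side chain to hydroxyalkyl forms, had 79.5 ± 31.8 RPKM in A. thaliana and 0.242 ± 0.0828 RPKM in A. arenosa (SD, n = 3; log2 -5.93, limma adjusted p = 1.48e-04). FMO-GSOX1, a side-chain S-oxygenase gene, differed by -3.76 on the log2 scale (adjusted p = 2.56e-04) and MAM3, a chain-elongation gene, higher by 2.04 (adjusted p = 0.0404) in limma. The other called genes were CYP79F2, higher by 2.20, and CYP79F1, at -2.83, whose enzymes start aliphatic glucosinolate synthesis.

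In the F1, 19 genes of the list were compared, and 4 were called higher and 1 lower from the A. arenosa allele, where 8.47% of all genes were higher and 4.42% lower. The median log2 ratio was 0.40 over the 19 genes and 0.05 over all genes, and 9 of the 19 had a limma adjusted p below 0.05 at any size. The matching count over all genes was not taken, but 4536 of 10221 genes had an unadjusted p below 0.05 in that test. The higher ones were MAM3 (2.36), CYP79F2 (1.82), CYP79B2 (1.69) and GTR2 (1.53), and the lower one was CYP79F1 (-2.04), with limma adjusted p from 0.00215 to 0.00497. GTR2 encodes a glucosinolate transporter. CYP79B2, which starts indole glucosinolate synthesis, had a parental log2 difference of 0.19 (limma adjusted p = 0.76). The trans term called none of the 19 by limma. An unadjusted p below 0.05 was found for 5 of them (MAM1, CYP79B2, UGT74B1, SOT18 and GTR2) and for 1520 of all 9855 genes.

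The morning clock gene CCA1 had the same order of libraries as TGG1 in A. thaliana (0.258, 7.23 and 24.5 RPKM against 44.1, 138 and 396 RPKM) but not in A. arenosa (9.91, 4.73 and 8.56 RPKM against 148, 438 and 769 RPKM). The evening gene TOC1 had 46.9, 13.9 and 7.12 RPKM in A. thaliana, the reverse order of TGG1, while in A. arenosa it had the order of TGG1 and was lowest in replicate 1, at 6.86 RPKM against 28.8 RPKM in replicate 2. The part of clock phase in the TGG1 values was not tested.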
